A study of Mus musculus with 6 samples.

Results

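The genes described here are the IL-1, IL-18 and inflammasome genes of monocytes sorted from the CNS of mice with EAE, a mouse model of multiple sclerosis. They are 10 genes of the 54232 in the deposited tables and are defined by their names: *Il1a*, *Il1b*, *Il1rn*, *Il18*, *Il18bp*, *Nlrp3*, *Pycard*, *Casp1*, *Casp4* and *Gsdmd*. All 6 libraries came from mixed BM chimera mice. GFP+ recipients were lethally irradiated with 2 doses of 550 Rad given 12 h apart, received WT (CD45.1) and Ifnar1-/- (CD45.2) BM in equal parts, and were immunized for EAE 6 to 7 weeks later. All of these mice were given 30000 IU IFN-β (rIFN-β) every day, and no library came from mice without it. At disease peak, donor-derived monocytes (GFP-CD45+CD11b+Ly6ChiLy6G-) of either genotype were FACS sorted and sequenced, giving 3 WT and 3 Ifnar1-/- libraries. The comparison therefore asks how transcript levels differed between monocytes with and without IFNAR1, a chain of the type I IFN receptor, in a shared rIFN-β-treated environment. The genotype cannot be told apart from the donor strain and its CD45 variant, and the labels do not say which mouse or pool of mice gave each library, so the p-values measure only the spread between these samples, which may be technical. In sorted bulk cells, fewer cells of a type and less RNA per cell cannot be told apart.

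IL-1α and IL-1β are ligands of the same receptor, and the IL-1 receptor antagonist encoded by *Il1rn* competes with them for it, while IL-18 is bound and neutralized by the secreted IL-18 binding protein. IL-1β and IL-18 are made as precursors that caspase-1 cleaves within the inflammasome, a complex that the sensor NLRP3 forms with the adaptor ASC, the product of *Pycard*. Inflammatory caspases also cleave gasdermin D, the N-terminal part of which forms pores in the cell membrane. RNA levels describe the supply of these components and carry no information on cleavage or release.

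Total counts were 4531782 to 7321380 per library, 11254 genes passed the filter on low counts, and 240 of them (2.13%) were differentially expressed in an edgeR quasi-likelihood test (adjusted p no higher than 0.05, fold change 1.5 or more). The targeted gene, *Ifnar1*, had 153, 126 and 111 normalized CPM (counts scaled to the library size) in WT and 110, 102 and 109 in Ifnar1-/- libraries (adjusted p = 0.360), and on a per-length scale (TPM over protein-coding genes) the order of the groups turned, with every WT library below every Ifnar1-/- library. A gene-level count holds no record of the exons that were read, so it does not check the labels, and genotypes are those of the labels. Mitochondrial transcripts took up to 23.6% of counts, and 1 short RNA, *Rn7s2*, took 27.8% of TPM in WT library 1 against 7.36% to 11.2% in the others, so that levels between genes are given below as TPM rescaled over protein-coding genes alone. Summed levels of 10 monocyte markers were 8871 to 10901 CPM in WT and 9302 to 10545 CPM in Ifnar1-/- libraries. *Lyz2* made the largest part of these sums, at 3211 to 5271 CPM over the libraries, and 7 of the 10 markers had a higher mean in WT. *Ly6c2*, which encodes the Ly6C antigen used in the sort, was the 1 marker of this list that was differentially expressed, with a log2 fold change of 1.40 (WT over Ifnar1-/-, adjusted p = 0.00957). *Ccr2*, named after its values were seen, went the other way without overlap or passing the test. It had 648, 694 and 587 CPM in WT and 1269, 794 and 905 CPM in Ifnar1-/- libraries (log2 fold change -0.62, adjusted p = 0.143).

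One of the 10 genes, *Il18*, was upregulated in WT monocytes, and 0 were downregulated. Over all genes tested, 1.67% were upregulated and 0.462% were downregulated by the same rule. The other 9 did not pass the test, and 2 of the 10 (*Il18* and *Il1a*) had an unadjusted p under 0.05, against 17.8% of all genes tested. For 1 of these, *Il1a*, the WT level was the lower, as in 8.14% of all genes tested. All 10 passed the filter on low counts. The log2 fold change was positive for 6 and negative for 4 of them, with a median of 0.08 against -0.01 over all genes tested. For 6 of the 10, the 95% confidence interval lay wholly below a 1.5-fold rise in WT monocytes. It lay wholly above a 1.5-fold fall for all except *Il1a*, *Il1b* and *Casp1*. For 3 (*Nlrp3*, *Pycard* and *Gsdmd*) it lay within 1.5-fold in both directions. In normalized CPM the ranges of the genotypes were separate for 3 genes, WT being above for *Il18* and below for *Il1a* and *Casp1*, a pattern that 23.4% of all genes tested showed in one direction or the other (11.1% above and 12.2% below).

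**Figure D1:**
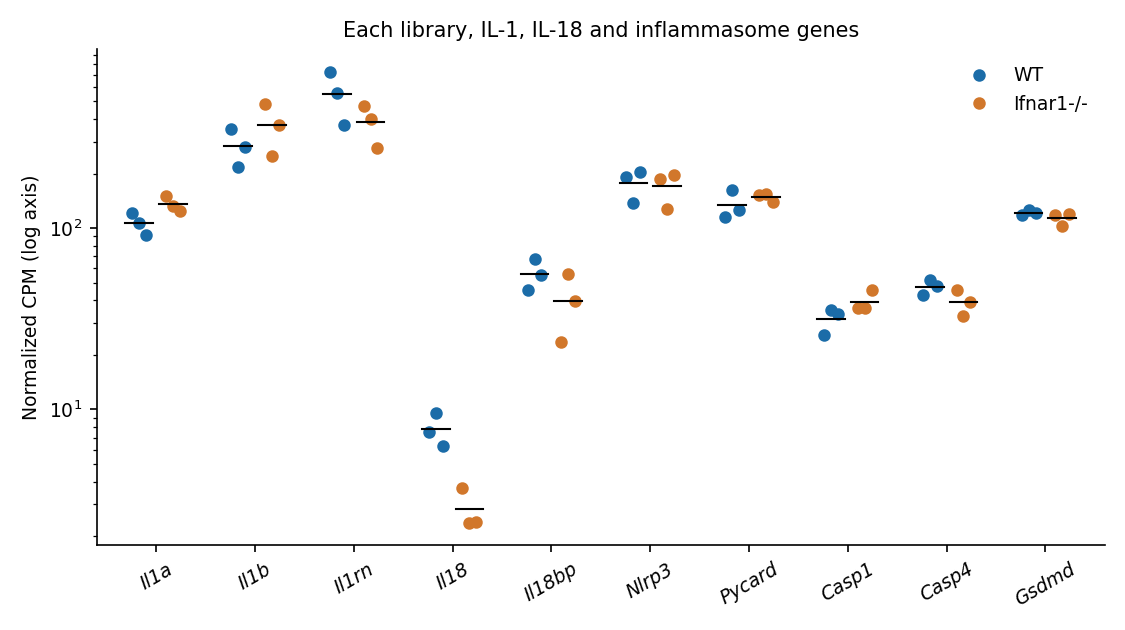
Normalized CPM (log axis) of the 10 genes in each of the 3 WT (blue) and 3 Ifnar1-/- (orange) libraries, where a point is 1 library and a black line is the group mean. The libraries of the genotypes separate completely for *Il18*, *Il1a* and *Casp1*, and *Il18* lies below the other 9 genes in all 6 libraries.

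To show the DNA next to the genes that the comparison turns on, the 250 bases before the RefSeq start site are printed for *Il18*, the upregulated gene, for *Il1b*, the main inflammasome substrate among the ligands, and for *Trim30a*, an IFN-inducible gene described below that was upregulated among the other genes of the pathway. The sequences are from RefSeq (GRCm38.p6), 5′ to 3′ on the strand of the gene: chr9:50554450-50554699 (plus strand) for *Il18*, chr2:129371140-129371389 (minus strand) for *Il1b* and chr7:104465194-104465443 (minus strand) for *Trim30a*. The RefSeq start of *Il18* lies upstream of the GENCODE start given below. Capitals mark a TATA box match (TATAAA, or TTTATA where it reads on the opposite strand) in *Il18* and *Il1b*, and in *Trim30a* a match to the ISRE-type motif (GAAA, any 2 bases, GAAA), which on the opposite strand reads TTTC, any 2 bases, TTTC.
Il18: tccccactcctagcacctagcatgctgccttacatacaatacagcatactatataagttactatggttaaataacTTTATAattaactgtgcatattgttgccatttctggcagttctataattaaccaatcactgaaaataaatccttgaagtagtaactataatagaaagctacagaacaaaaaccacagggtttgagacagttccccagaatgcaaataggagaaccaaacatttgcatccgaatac
Il1b: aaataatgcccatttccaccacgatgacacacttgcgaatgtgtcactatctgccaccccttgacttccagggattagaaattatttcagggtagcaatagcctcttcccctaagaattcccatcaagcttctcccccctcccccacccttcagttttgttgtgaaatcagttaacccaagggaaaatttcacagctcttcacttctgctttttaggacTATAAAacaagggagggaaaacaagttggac
Trim30a: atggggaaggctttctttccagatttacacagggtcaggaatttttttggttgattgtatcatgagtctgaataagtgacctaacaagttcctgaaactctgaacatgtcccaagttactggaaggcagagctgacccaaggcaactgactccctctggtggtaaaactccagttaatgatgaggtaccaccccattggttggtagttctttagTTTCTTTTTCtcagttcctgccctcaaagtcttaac
Promoter windows (250 bases before to 50 after a start site) were present for 9 of the 10 genes, with 13 windows in all, and *Gsdmd* had no entry. The ISRE-type motif, of the kind bound by IRF factors and the ISGF3 complex, was found on either strand in 0 of these 13 windows and in both of the 2 windows of *Trim30a*, against 3.44% of 32851 windows of the genome. A GAS-type motif (TTCNNNGAA, its own reverse complement) was found in 0 of the 13, against 8.3% of all windows. A PU.1-type motif (GAGGAA or TTCCTC) was found in 4 of the 13, those of *Casp1*, *Il1a* and *Pycard* and 1 of the 2 of *Nlrp3*, against 28.3% of all. The TATA box letters were found in 4 of the 13, against 13.6% of all, and began at position -31 from the start of *Il1b* and -32 from that of *Il1a*. The other 2 matches lay away from the usual position of a TATA box, at position -175 of *Il18* on the opposite strand and at position 14 of a start of *Il1rn*. A match is a description of letters in these windows, and its absence says nothing about binding elsewhere.

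Per length, *Il1rn* and *Il1b* had the highest levels of the 10 genes and *Il18* the lowest. Mean TPM over protein-coding genes across the 6 libraries was 1030 for *Il1rn*, 701 for *Il1b*, 399 for *Pycard*, 171 for *Gsdmd*, 136 for *Il1a*, 101 for *Nlrp3*, 83.2 for *Il18bp*, 78.6 for *Casp4*, 54.4 for *Casp1* and 15.9 for *Il18*. Neighbours in this order had overlapping ranges over the 6 libraries except *Pycard* above *Gsdmd* and *Casp1* above *Il18*, which kept their order in 6 of 6 libraries without overlap. Among tested protein-coding genes, *Il1rn* stood at percentile 98.5 of level, *Il1b* at 97.7 and *Pycard* at 96.2, whereas *Il18* stood at percentile 36.0. The antagonist transcript thus ranked above the IL-1β transcript by mean, with *Il1rn* above *Il1b* in 4 of 6 libraries.

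The IL-1 ligands had lower mean levels in WT than in Ifnar1-/- monocytes, but neither difference passed the test. *Il1b* (ENSMUSG00000027398.13, chromosome 2, 129364570 to 129371139, GRCm38, minus strand) had 354, 217 and 279 normalized CPM in the WT libraries against 483, 250 and 372 in the Ifnar1-/- ones. The groups overlapped, since WT library 1 was above Ifnar1-/- library 2. The WT mean of 283 ± 68.7 CPM (SD, n = 3) compared with an Ifnar1-/- mean of 368 ± 116 CPM (SD, n = 3), and the log2 fold change was -0.38 with an SE of 0.25 (adjusted p = 0.463). Its 95% interval, 0.525 to 1.13 on the fold scale, holds no difference as well as a fall of over 1.5-fold. The neutrophil marker list, 3 of whose 10 genes had a higher mean in WT, summed to 338 to 2217 CPM in WT and 858 to 2476 CPM in Ifnar1-/- libraries. *Ly6g* was below 1 CPM in all 6, whereas *S100a9* ran from 42.7 to 734 CPM and *Ngp* from 74.6 to 677 CPM over the libraries. The part of neutrophils in the levels of *Il1b*, which they also make, was not tested. The antisense transcript *Il1bos* overlaps exons of *Il1b* and held 2 to 20 counts per library, a small number beside the 1022 to 3160 of *Il1b*.

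*Il1a* (ENSMUSG00000027399.1, chromosome 2, 129299610 to 129309972, minus strand), which encodes the alarmin IL-1α and ends 54.6 kb from *Il1b*, had 121, 106 and 91.4 normalized CPM in the WT libraries against 150, 133 and 124 in the Ifnar1-/- ones. Every WT library was below every Ifnar1-/- library on this scale and in TPM over protein-coding genes, whereas the groups overlapped in the deposited TPM. The log2 fold change was -0.35 (SE 0.15), with an unadjusted p of 0.0447 that did not pass adjustment (adjusted p = 0.265). WT monocytes thus had 0.784 times the *Il1a* level of Ifnar1-/- monocytes, with a 95% interval from 0.620 to 0.993. The ratio of *Il1b* to *Il1a* was close in the groups, with a WT mean of 4.95 ± 0.875 (SD, n = 3) and an Ifnar1-/- mean of 5.24 ± 1.58 (SD, n = 3) on TPM.

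*Il18* (ENSMUSG00000039217.13, chromosome 9, 50554827 to 50581840, plus strand) had 7.54, 9.56 and 6.32 normalized CPM in the WT libraries against 3.66, 2.37 and 2.39 in the Ifnar1-/- ones. The groups did not overlap on this scale, in the deposited TPM or in TPM over protein-coding genes. These values rest on 53, 45 and 32 counts in WT and 24, 14 and 13 counts in Ifnar1-/- libraries. *Il18* was upregulated 2.74-fold in WT monocytes (95% interval 1.71 to 4.39), a log2 fold change of 1.45 with an SE of 0.31 (adjusted p = 0.0401). The call lay near the threshold: it was lost whichever 1 of the 6 libraries was left out, with log2 fold changes of 1.31 to 1.72 and adjusted p-values from 0.0562 to 0.142. DESeq2, the tool of the study, gave the same counts of 1 upregulated and 0 downregulated among the 10 genes (*Il18*, log2 fold change 1.48, adjusted p = 0.0186). The call was lost with limma-voom (adjusted p = 0.0505), with limma-trend on TPM (adjusted p = 0.0508) and when replicate numbers entered as a block in edgeR (adjusted p = 0.0548) or DESeq2 (adjusted p = 0.133). 

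A transcript that overlaps *Il18* and marker lists of other cell types are given here beside it, chosen after their values were seen. *Bco2*, a carotenoid-cleaving enzyme gene that lies over *Il18* on the opposite strand without sharing exon bases, had 15, 16 and 11 counts in WT and 2, 6 and 3 counts in Ifnar1-/- libraries (log2 fold change 2.00, adjusted p = 0.0874). The strand setting of the counting is not given in the sources used here. T cell markers had a higher mean in WT for 10 of 10 genes, 0 of which were differentially expressed, and summed to 23.8 to 57.6 CPM in WT and 8.64 to 22.1 CPM in Ifnar1-/- libraries, without overlap. Plasmacytoid dendritic cell markers had a higher mean in WT for 6 of 6 genes and summed to 53.5 to 70.4 CPM in WT and 37.3 to 53.9 CPM in Ifnar1-/- libraries, with overlap. Nearly all of this sum was *Tcf4*, with *Ly6d*, *Cox6a2* and *Klk1* at 3 counts or fewer in every library. The study reports that rIFN-β made the profile of the monocytes themselves enriched for plasmacytoid dendritic cell genes. Microglia markers, from the resident macrophages of the CNS, were higher on average in WT for 3 of 8 genes and summed to 292 to 381 CPM in WT and 344 to 415 CPM in Ifnar1-/- libraries, with overlap. Conventional dendritic cell markers had a higher mean in WT for 4 of 6 genes and summed to 27.2 to 37.4 CPM in WT and 16.2 to 28.6 CPM in Ifnar1-/- libraries, with overlap. NK cell markers had a higher mean in WT for 3 of 4 genes and summed to 0.425 to 2.96 CPM in WT and 0 to 0.736 CPM in Ifnar1-/- libraries, with overlap. The part of *Bco2* reads or of other cells in the *Il18* difference was not tested.

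Both antagonists had higher mean levels in WT monocytes, and neither difference passed the test. *Il1rn* (ENSMUSG00000026981.15, chromosome 2, 24336853 to 24351494, plus strand) had 728, 555 and 371 normalized CPM in the WT libraries against 473, 400 and 276 in the Ifnar1-/- ones. The groups overlapped because WT library 3 fell below Ifnar1-/- libraries 1 and 2. The log2 fold change was 0.52 with an SE of 0.26 (adjusted p = 0.322), or 1.44-fold with a 95% interval from 0.963 to 2.15. *Il18bp* (ENSMUSG00000070427.4, chromosome 7, 102014885 to 102018690, minus strand) had 45.4, 67.8 and 55.3 normalized CPM in the WT libraries against 23.7, 55.9 and 39.7 in the Ifnar1-/- ones, again with overlap. The log2 fold change was 0.50 with an SE of 0.27 (adjusted p = 0.370), and its 95% interval ran from 0.929-fold to 2.14-fold. *Numa1*, a mitotic spindle gene on the opposite strand that shares exon bases with *Il18bp*, had 1017, 227 and 377 counts in WT and 217, 257 and 261 counts in Ifnar1-/- libraries, and its part in the *Il18bp* counts was not tested.

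Set against its ligand within each library, the antagonist of IL-1 had a higher mean ratio in WT monocytes and the binding protein of IL-18 a lower one, and both ratios overlapped between genotypes. The ratio of *Il1rn* to *Il1b* on TPM was 2.21, 2.63 and 1.45 in WT libraries against 0.890, 1.69 and 0.760 in Ifnar1-/- libraries. Only WT library 3 and Ifnar1-/- library 2 were out of order. The mean log2 ratio was 0.96 higher in WT monocytes, with a pooled SD of 0.53 between libraries of a genotype. The ratio of *Il18bp* to *Il18* was 3.71, 4.27 and 4.56 in WT libraries against 4.07, 14.9 and 8.43 in Ifnar1-/- libraries, so that Ifnar1-/- library 1 lay among the WT libraries. Its mean log2 ratio was 0.94 lower in WT, a mean difference of -0.94 with a pooled SD of 0.67, and its denominator rests on the low *Il18* counts given above. On normalized CPM in place of TPM the differences were 0.86 and -0.92. No p is given for these ratios, and an exact permutation test of 3 against 3 cannot go below 0.1.

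**Figure D2:**
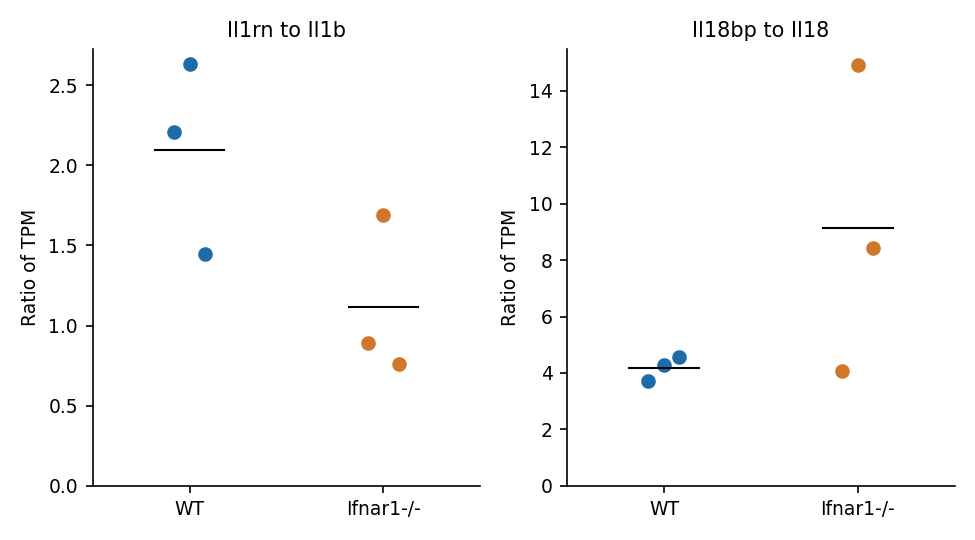
Ratio of TPM of *Il1rn* to *Il1b* (left) and of *Il18bp* to *Il18* (right) in each library (linear axes from 0), where a point is 1 library and a line is the group mean. The *Il1rn* to *Il1b* ratio was above 1 in 3 of 3 WT libraries and in 1 of 3 Ifnar1-/- libraries, and both ratios overlap between genotypes.

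The sensor and the adaptor of the NLRP3 inflammasome differed by less than the spread between libraries. *Nlrp3* (ENSMUSG00000032691.14, chromosome 11, 59541568 to 59566956, plus strand) had 190, 137 and 203 normalized CPM in the WT libraries against 186, 128 and 197 in the Ifnar1-/- ones. In both groups library 2 was the lowest, and the groups overlapped almost fully. The log2 fold change was 0.05 with an SE of 0.20 (adjusted p = 0.930), its 95% interval was 0.758-fold to 1.42-fold, and its sign turned on the TPM scale (log2 fold change -0.12). *Pycard* (ENSMUSG00000030793.4, chromosome 7, 127989708 to 127993867, minus strand) had 115, 162 and 126 normalized CPM in the WT libraries against 153, 155 and 139 in the Ifnar1-/- ones, and WT library 2 was the highest of all. Its log2 fold change was -0.15 with an SE of 0.16 (adjusted p = 0.675), with a 95% interval of 0.706-fold to 1.15-fold.

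Of the inflammatory caspases and their pore-forming substrate, none passed the test. *Casp1* (ENSMUSG00000025888.5, chromosome 9, 5298517 to 5307265, plus strand) encodes a caspase that matures IL-1β and IL-18. It had 25.8, 35.5 and 33.8 normalized CPM in the WT libraries against 36.0, 36.1 and 45.4 in the Ifnar1-/- ones. The WT libraries lay below the Ifnar1-/- libraries on this scale, by a narrow margin, and overlapped with them on both TPM scales. Its log2 fold change was -0.31 with an SE of 0.17 (adjusted p = 0.372). *Casp4* (ENSMUSG00000033538.13, chromosome 9, 5308828 to 5336783, plus strand), the mouse gene of the caspase that senses cytosolic LPS, had 42.7, 51.9 and 47.8 normalized CPM in the WT libraries against 45.4, 32.7 and 39.4 in the Ifnar1-/- ones. The groups overlapped on this scale, whereas in TPM over protein-coding genes every WT library was above every Ifnar1-/- library. Its log2 fold change was 0.27 with an SE of 0.16 (adjusted p = 0.401). *Casp1* and *Casp4* lie 1.56 kb apart and are paralogs, so reads could be divided between them in counting. *Gsdmd* (ENSMUSG00000022575.5, chromosome 15, 75862327 to 75867408, plus strand), which encodes gasdermin D, had 118, 125 and 122 normalized CPM in the WT libraries against 117, 103 and 120 in the Ifnar1-/- ones. These values were the closest between genotypes beside those of *Nlrp3*, with overlap and a log2 fold change of 0.10 with an SE of 0.13 (adjusted p = 0.735).

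**Figure D3:**
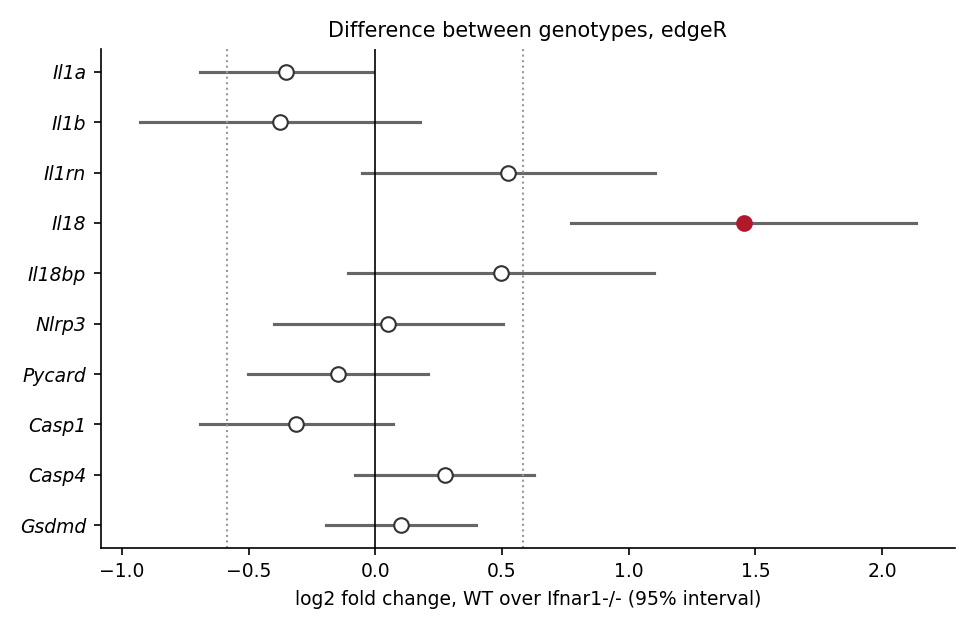
Log2 fold change (WT over Ifnar1-/-) of the 10 genes from edgeR with its 95% confidence interval, where the filled red point is the gene that was differentially expressed and the dotted lines are a 1.5-fold change in either direction. The interval of *Il18* (0.77 to 2.13) lies beyond the upper dotted line, and those of *Nlrp3*, *Pycard* and *Gsdmd* lie between the lines.

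RSEM divides the reads of a gene among its transcripts and gives a mean transcript length weighted by their shares, a measure that varied between libraries for 8 of the 10 genes. The groups did not overlap in this length for 2 of the 8, *Nlrp3* and *Casp4*, against 10.6% of 8985 tested genes whose length varied. For *Nlrp3*, which has annotated transcripts of 676, 3933 and 4021 bases, all protein-coding, the weighted length was 3691, 3947 and 3939 bases in WT libraries against 3344, 3348 and 3644 bases in Ifnar1-/- libraries. Every WT library was above every Ifnar1-/- library. The lengths imply that the 676-base transcript made up 7.44% to 9.87% of *Nlrp3* transcripts in WT library 1 and at most 2.22% and 2.44% in WT libraries 2 and 3. In Ifnar1-/- libraries they imply 18.1% to 20.2%, 18.0% to 20.1% and 8.88% to 11.3%, so that the implied shares of WT library 1 and Ifnar1-/- library 3 overlap. For *Casp4* the weighted length was 1311, 1306 and 1216 bases in WT libraries against 1349, 1324 and 1318 bases in Ifnar1-/- libraries, a smaller difference in the opposite direction. A two-sided exact permutation test gave p = 0.1 for each gene, the smallest value that 3 against 3 allows. These lengths are model estimates, and their error within a library is unknown.

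**Figure D4:**
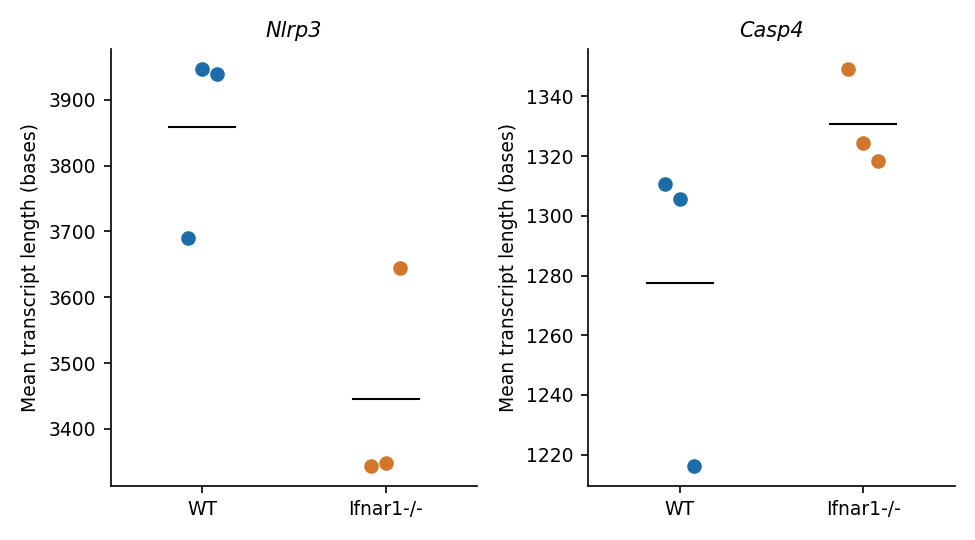
Mean transcript length in bases, as RSEM weighted it, of *Nlrp3* (left) and *Casp4* (right) in each library (the axes do not start at 0), where a point is 1 library and a line is the group mean. The WT libraries lie above the Ifnar1-/- libraries for *Nlrp3* (3691 to 3947 against 3344 to 3644 bases) and below them for *Casp4* (1216 to 1311 against 1318 to 1349 bases).

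The wider pathway was read from 7 lists with 64 genes, 54 of which were tested. One gene of these lists, *Trim30a*, was upregulated in WT monocytes and 0 were downregulated, 9 of 54 had an unadjusted p under 0.05 and the median log2 fold change was 0.08. These counts lie near the shares over all genes tested, of which 1.67% were upregulated, 0.462% were downregulated and 17.8% had an unadjusted p under 0.05. *Trim30a*, which encodes an IFN-inducible TRIM protein known as a negative regulator of NF-κB signalling and of the NLRP3 inflammasome, had 279, 223 and 217 normalized CPM in the WT libraries against 93.5, 62.7 and 67.9 in the Ifnar1-/- ones. The lowest WT library was above the highest Ifnar1-/- library by more than the spread within either group. Its log2 fold change was 1.68 with an SE of 0.19 (adjusted p = 0.000827), and the call was kept under every alternative run, with adjusted p-values up to 0.00801. It was the 1 gene of 9 tested that was differentially expressed among the factors that control the inflammasome upstream, which include *Nek7*, *P2rx7* and *Tnfaip3*, and the median of that list was 0.02.

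None of the other 6 lists held a differentially expressed gene in edgeR, which is near the background for lists of this size, since 2.13% of all genes tested were differentially expressed. Of the other IL-1 family ligands 1 of 6 could be tested, *Il36g*, with 1.18 to 4.89 CPM over the 6 libraries and a log2 fold change of -0.26 (adjusted p = 0.810), and the alarmin *Il33* did not exceed 2 counts in any library. Of the IL-1 family receptors 7 of 8 were tested, and the highest per length was *Il1r2*, the decoy receptor that binds IL-1 without signalling, with 70.0, 138 and 99.3 CPM in WT and 50.2, 123 and 87.5 CPM in Ifnar1-/- libraries (log2 fold change 0.23, adjusted p = 0.740). The groups overlapped, and the signalling receptor *Il1r1* was far lower, at 2.70 to 7.29 CPM. Among 13 signalling genes below the receptors, the kinase gene *Irak2* was the highest per length, with 116, 109 and 110 CPM in WT and 103, 93.5 and 94.7 CPM in Ifnar1-/- libraries. These values did not overlap, but the log2 fold change of 0.20 did not pass the test (adjusted p = 0.451).

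Of the sensors other than *Nlrp3*, 9 of 12 were tested. The NAIP family, whose proteins detect bacterial flagellin and secretion system parts for the NLRC4 inflammasome, held both the highest and the most different of them. *Naip2* had 321, 356 and 305 CPM in WT and 309, 366 and 324 CPM in Ifnar1-/- libraries (log2 fold change -0.02, adjusted p = 0.956). *Naip1*, chosen after its values were seen, had 7.83, 7.65 and 4.34 CPM in WT and 3.51, 2.54 and 1.84 CPM in Ifnar1-/- libraries, without overlap and without passing the test (log2 fold change 1.31, adjusted p = 0.0990). The NAIP genes are close paralogs, so the division of reads among them is uncertain. Of 9 other caspase and pore genes, all tested, *Ninj1*, which encodes a protein of plasma membrane rupture, was the highest per length, with 179, 206 and 148 CPM in WT and 117, 158 and 132 CPM in Ifnar1-/- libraries. WT library 3 lay within the Ifnar1-/- range, and the log2 fold change was 0.39 (adjusted p = 0.271).

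The last list held the receptors of GM-CSF, TNF and FASL, through which T cells can act on monocytes. It also held *Csf2rb2*, the IL-3-specific paralog of *Csf2rb* in the mouse, which is not a GM-CSF receptor chain. Reads could be divided between these paralogs in counting. The log2 fold changes of the 6 genes ran from 0.01 (*Fas*) and 0.04 (*Tnfrsf1a*) to 0.55 with a median of 0.37, and 0 passed the test. *Csf2rb*, the shared signalling chain of the GM-CSF receptor, had 963, 746 and 705 CPM in WT and 611, 847 and 581 CPM in Ifnar1-/- libraries (log2 fold change 0.24, adjusted p = 0.561), with overlap. Of the 6, 3 had an unadjusted p under 0.05, as did 17.8% of all genes tested, and are named after their values were seen: *Csf2ra* (log2 fold change 0.50, adjusted p = 0.174), *Csf2rb2* (0.55, adjusted p = 0.205) and *Tnfrsf1b* (0.53, adjusted p = 0.132).

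**Figure D5:**
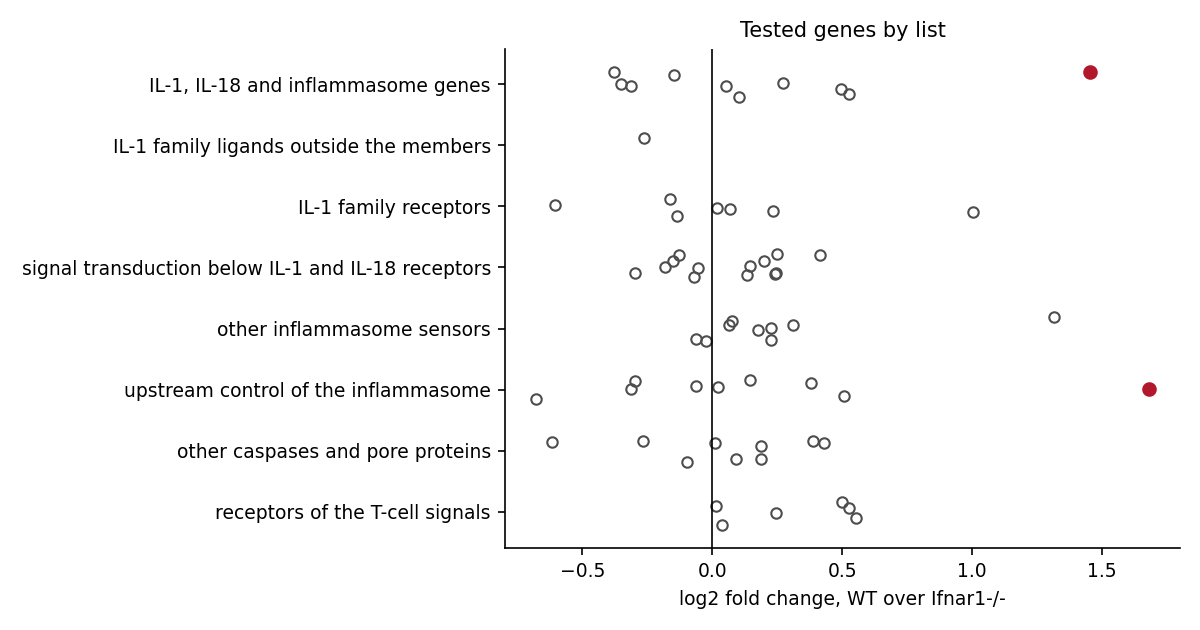
Log2 fold change (WT over Ifnar1-/-) of each tested gene among the 10 genes and in the 7 pathway lists, where a point is 1 gene, filled red points are differentially expressed genes and the vertical scatter within a row only separates the points. The 2 red points are *Il18* (1.45) and *Trim30a* (1.68), and the receptors of the T-cell signals all lie to the right of 0.

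The genes whose pattern over the 6 libraries was most like that of *Il1b* were found by the root mean square (RMS) difference in mean-centred log2 CPM among the other 11253 tested genes. They were *Gm42031* (RMS difference 0.0795), *Tmem50b* (0.103), *Ppcs* (0.104), *Exosc7* (0.106) and *Pop1* (0.110), against a median of 0.457 over all genes. Of the genes described here, *Nlrp3* came nearest to *Il1b* (0.281, rank 461) and *Il1a* next (0.304, rank 763). *Il1rn* (0.605, rank 9196), *Il18bp* (0.858, rank 10797) and *Il18* (0.920, rank 10897) were less like *Il1b* than the median gene. The *Il18* value rests on the low counts given above. With 6 libraries, this likeness is a description of these samples.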

How the data were processed

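RNA-seq of 3 WT and 3 Ifnar1-/- libraries was analysed. Per the labels, reads were aligned with STAR 2.6.0c to GRCm38 and quantified with RSEM 1.2.31. The labels name a Takara SMARTer Stranded Total RNA-Seq Pico kit and the study's methods a TruSeq kit, and the annotation version they name is not a mouse one. The authors deposited expected counts, TPM and the weighted transcript length of each gene in bases, and FPKM was not used. Gene identifiers matched GENCODE M21 for 54165 of 54232 genes.

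Expected counts were rounded and filtered with filterByExpr (minimum count 10), normalized by TMM and tested with edgeR 4.0.16 (R 4.3.3, limma 3.58.1), with Benjamini-Hochberg adjustment over all tested genes. DESeq2 1.42.0 and 16 other alternatives were run. Counts limit precision most for *Il18*.

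The members and lists were chosen with earlier results of these data known. Named genes were *Ifnar1*, the 10 members, in each list the differentially expressed genes or, where there was none, the gene with the highest TPM, and the 5 nearest to *Il1b*. One marker list is not reported here. TPM over protein-coding genes was added after the data were seen.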

Additional observations from a re-analysis of the deposited data

How the results depend on the processing

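The call of *Il18* depended on the processing. It was kept with DESeq2, RLE normalization, no filter, at least 10 counts in every library, mitochondrial and rRNA genes removed, the fold threshold dropped, and TPM over protein-coding genes (added after the data were seen), with adjusted p-values down to 0.00130. The count of upregulated members fell from 1 to 0 with limma-voom (log2 fold change 1.43, adjusted p = 0.0505), limma-trend on log2(TPM + 1) (1.30, adjusted p = 0.0508) and in each of the 6 fits with 1 library left out (1.31 to 1.72). Downregulated members stayed at 0 in every alternative run. The causes were not tested.

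Over all genes, 240 were differentially expressed (188 upregulated and 52 downregulated, against 148 and 14 on TPM over protein-coding genes), 419 with DESeq2, 872 with no filter, 128 on TPM, and 119 to 245 with 1 library left out (148 without WT replicate 3, 119 and 120 without Ifnar1-/- replicates 1 and 3). The pathway lists held 3 such genes in place of 1 with no filter.

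The sign of the log2 fold change turned for genes that did not pass the test. That of *Nlrp3* was -0.12 on TPM, -0.082 on TPM over protein-coding genes and, with 1 library left out, -0.10 to 0.22. That of *Ifnar1* was -0.29 and -0.26 on these TPM scales. With 1 library left out, that of *Il1r2* ran from -0.030 to 0.583 (below 0 without WT replicate 2 or Ifnar1-/- replicate 1), that of *Il36g* from -0.72 to 0.12 (above 0 without WT replicate 3) and that of *Naip2* from -0.076 to 0.065 (above 0 without WT replicate 3 or Ifnar1-/- replicate 2), and *Naip2* was 0.018 on TPM over protein-coding genes.

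Same-numbered libraries deviated together with correlations of 0.0974, 0.0213 and 0.232, and 2 of the 3 pairs did not exceed 0.1. These values cannot decide whether the numbers pair the samples, since the sources do not say which mice gave each library. The main fit therefore took no pairing, and fits with the replicate number as a block are given beside it. Ifnar1-/- replicate 2 correlated best with WT replicate 1 (0.0662), and the other 5 libraries with their own number. With the replicate number as a block, edgeR called 220 genes and *Il18* was not among them (log2 fold change 1.45, adjusted p = 0.0548). The same held with the block in DESeq2 (264 genes, *Il18* 1.49, adjusted p = 0.133), giving 0 upregulated members. The edgeR block lowered adjusted p for *Il1b* (0.463 to 0.255), *Il1rn* (0.322 to 0.140) and *Il18bp* (0.370 to 0.147), and none passed. It raised adjusted p for *Il18*, *Casp4* (0.401 to 0.433) and *Gsdmd* (0.735 to 0.742).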
